A study of Mus musculus with 8 samples.

Results

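Of the genes of ribosome production that could be read by name in these livers, 7 are described here: the ribosomal protein genes Rps20 and Rpl30, and the assembly genes Polr1e, Pop1, Nol6, Rbm28 and Brix1. They were chosen by symbol among the rows of the deposited count table that lie on 3 stretches of the GRCm38 assembly (chromosome 4 from 3.8 to 62.4 Mb, chromosome 6 from 3.5 to 30.9 Mb and chromosome 15 from 8.1 to 35.9 Mb), and they are 7 of 1439 rows there and of 55416 rows in all. Elsewhere in the nuclear genome the row names and the counts mostly do not belong together. For example, of 83 protein-coding rows outside the stretches that carry the name of a cytosolic ribosomal protein, 39 held 0 counts in every library and 6 reached a mean of 100. Those rows are therefore not read as genes here, and no statement is made about ribosomal proteins as a class.

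The study measured poly-A RNA by sequencing in 8 mouse livers, labelled as biological replicates, from animals all fed a MCD diet, which in its usual sense lacks methionine and choline and is used to bring on steatohepatitis. Its 2 groups of 4 were Sost-/- and SostPB/-, so every mouse carried at least 1 allele written as a minus, and the series asks what overexpression of Sost, the gene of the secreted Wnt inhibitor sclerostin, does to the disease. What PB means, the promoter that acts on it and the age and sex of the mice are not in the labels. Libraries held 9578086 to 14932773 counts, and mitochondrial transcripts took 51.9% ± 5.14 of them in Sost-/- and 59.3% ± 3.92 in SostPB/- (SD, n = 4). The Sost row lies outside the stretches and cannot check the labels, while the tissue can be checked: the hepatocyte gene Pon1, of a lipoprotein-bound esterase, had 1746 ± 207 CPM (counts relative to the scaled library total) in Sost-/- and 1895 ± 278 in SostPB/- (SD, n = 4).

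A ribosome is built in the nucleolus. RNA polymerase I copies the ribosomal DNA into a long precursor, the precursor is cut and folded while assembly factors come and go, and ribosomal proteins made in the cytoplasm are added to it to form a small and a large subunit. The messages of many ribosomal proteins begin with a C followed by a run of pyrimidines, the TOP tract, through which the growth kinase complex mTORC1 sets how strongly they are translated. In liver, cell growth and amino acid supply are known to act on this pathway.

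The annotated transcripts of the genes described were searched for such a tract at their starts. These starts come from the annotation and were not measured in these livers. Of 15 protein-coding transcripts of these genes in GENCODE M21, 1 begins with C and at least 4 more pyrimidines, and it belongs to Rpl30. The first 30 bases of that transcript (GRCm38, chr15:34443193-34443222, minus strand) and of the Rps20 transcript (chr4:3835636-3835665, minus strand) are given 5′ to 3′, with the leading pyrimidine run in capitals.
Rpl30: CCTTTCTCgctccccggccatcttggcggc
Rps20: gttccgggtcacaaagcacccggatgcgca
A start of this kind was annotated for 23 of 85 ribosomal protein genes (27.1%) and for 1121 of 21901 protein-coding genes (5.12%), counting a gene when any of its protein-coding transcripts had it. The start annotated for Rps20 is the start of a 3706-base transcript, and a tract further inside it was not searched for. A gene without such an annotated start, Rps20 included, is therefore not shown to lack the tract.

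A second set of sequences comes from promoters, and any link between these sequences and the levels of the genes was not tested. RefSeq promoter windows around the gene start in GRCm38.p6 were at hand for 3 of the 7 genes: Brix1, Polr1e and Rbm28. After these sequences had been seen they were searched on both strands for CCGGAAG, which is a form of the core bound by ETS factors, and for CACGTG, the E-box bound by MYC. CCGGAAG was found in Brix1 and Polr1e, and in 8.86% of 32851 promoters in all. The windows below are 30 bases long and hold the match in capitals. In Brix1 (minus strand) they lie at chr15:10486001-10486030 and chr15:10485912-10485941, and in Polr1e (plus strand, the match on the other strand) at chr4:45018623-45018652.
Brix1, upstream: ctacctcgagaCCGGAAGcgagcgccttgg
Brix1, at the start: gagcggcagaaCCGGAAGtgcaggcagcga
Polr1e: ctagaatgtcaCTTCCGGtttttgagtccg
CACGTG, found in 7.15% of promoters, had no match in the 3. A match describes letters in this window and not binding. The upstream Brix1 window also holds the start of Rad1, a neighbour on the other strand described below, at 10486018.

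The comparison of SostPB/- with Sost-/- asks whether liver RNA of these genes differed with the genotype. None of the 7 passed edgeR's quasi-likelihood test at an adjusted p of 0.05 over all 10020 rows tested, where 0 rows (0%) passed. DESeq2 and limma-voom also called 0 of the 7, while over the whole table they called 52 of 14604 rows and 1 of 10020 rows. At an unadjusted p of 0.05 there was 1, Rpl30, against 6.45% of all rows tested and 8.24% of rows on the stretches. Rpl30 was higher in SostPB/-, as were 2.98% of all rows and 3.69% of stretch rows at that threshold. The groups did not overlap in 1, Brix1, against 3.92% of all rows tested and 4.12% of those on the stretches. With 7 genes, 1 in each count is no more than a description of that gene. The median log2 fold change of the 7 was 0.03, with 4 above and 3 below 0, and that of all rows tested was -0.01. In bulk tissue, fewer cells of a type and less RNA per cell cannot be told apart.

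**Figure D1:**
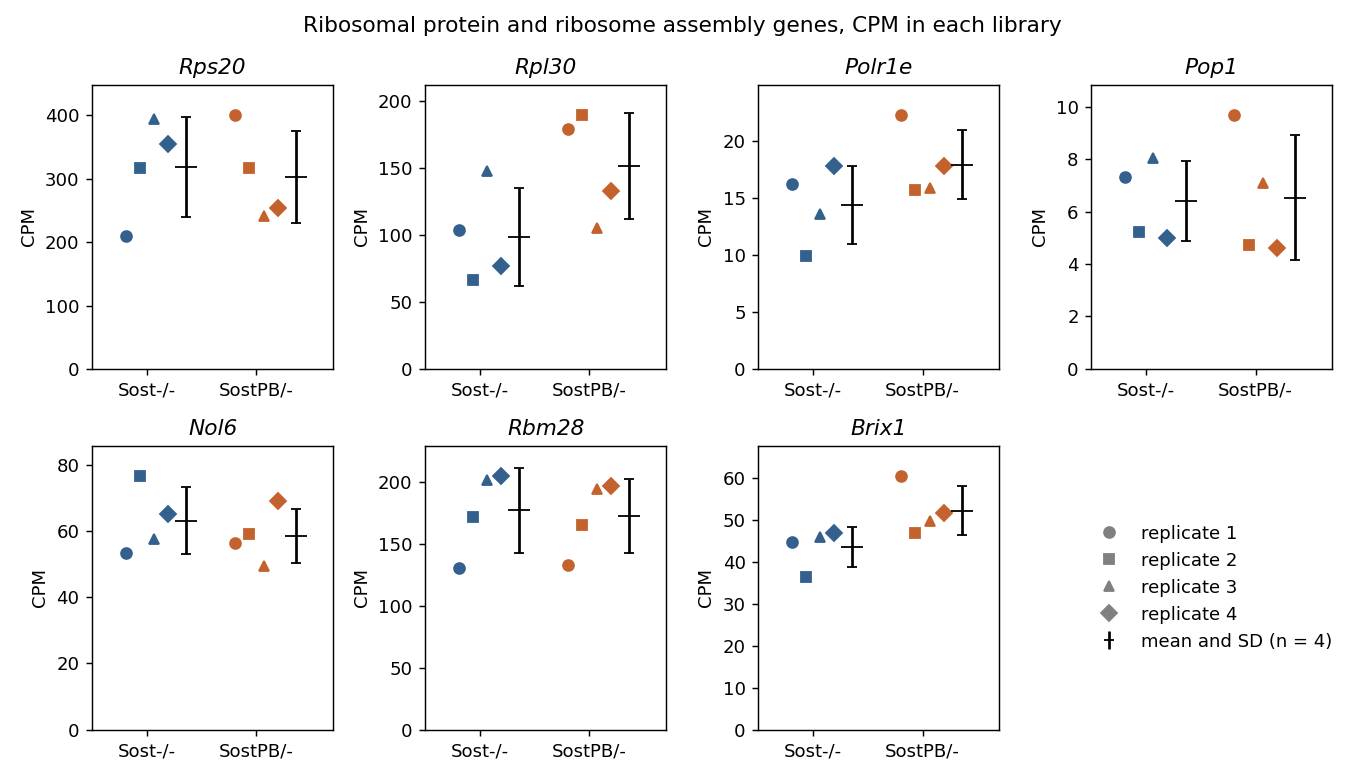
Each panel plots 1 gene's CPM (vertical axis, from 0) in the 4 Sost-/- and 4 SostPB/- libraries, with a symbol per replicate number and the mean and SD beside them. The groups overlap in every panel but Brix1, where the highest Sost-/- and the lowest SostPB/- library nearly touch.

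Rpl30, a protein of the large subunit (ENSMUSG00000058600, chromosome 15, 34440505 to 34443640), showed the largest difference of the 7. Its level was 104, 66.1, 148 and 76.7 CPM in Sost-/- replicates 1 to 4 and 179, 189, 105.04 and 133 CPM in SostPB/- replicates 1 to 4. The groups overlapped through Sost-/- replicate 3, which lay above 2 SostPB/- libraries, while the other Sost-/- libraries lay below all of SostPB/-. The means were 98.8 ± 36.6 and 152 ± 39.5 CPM (SD, n = 4), a 1.54-fold difference with a 95% interval from 1.01 to 2.34. The log2 fold change was 0.62 (SE 0.27), with an unadjusted p of 0.0467 and an adjusted p of 0.767 in edgeR. The unadjusted p was above 0.05 in 6 of 8 fits that left out 1 library and in 4 of 11 other settings: library totals alone (0.174), the replicate block (0.0776), only rows whose names hold (0.0616) and only stretch rows (0.0572). Leaving out Sost-/- replicate 2 took the log2 fold change to 0.47, and leaving out Sost-/- replicate 3 took it to 0.88 (unadjusted p in edgeR 0.123 and 0.00551). In none of these fits did it pass after adjustment.

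What lies on the same stretch of DNA matters for Rpl30, because no source used here gives the strand setting of the counting. D730044K07Rik, a transcript of unsettled type on the opposite strand, overlaps 661 bases of the Rpl30 gene. It had 0, 1.39, 2.54 and 0.688 CPM in Sost-/- and 7.43, 5.48, 2.33 and 4.51 CPM in SostPB/- replicates 1 to 4. The overlapping groups gave a log2 fold change of 2.10 (SE 0.80) with an edgeR adjusted p of 0.715. It held at most 74 counts in a library, where Rpl30 held 761 to 2559, and its part in the Rpl30 value was not tested. Rpl30 also has processed copies elsewhere in the genome, and how reads shared with them were counted is not given, so its level is uncertain to that extent.

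Rps20, a protein of the small subunit (ENSMUSG00000028234, chromosome 4, 3831334 to 3835665), had the highest CPM of the 7. It reached 210, 317, 394 and 355 CPM in Sost-/- and 400.0, 317, 241 and 254 CPM in SostPB/- replicates 1 to 4. The groups covered nearly the same range, and replicate 1 was the lowest of the Sost-/- and the highest of the SostPB/- libraries. The means were 319 ± 79.2 and 303 ± 72.8 CPM (SD, n = 4), with a log2 fold change of -0.07 (SE 0.23, 95% interval -0.58 to 0.43, edgeR adjusted p = 0.986). The interval spans a fall to 0.670-fold and a rise to 1.34-fold.

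The RNA counts of the 2 ribosomal protein genes did not keep a fixed proportion to each other. The ribosome holds both proteins, whose amounts were not measured here. The ratio of Rpl30 to Rps20 counts, which needs no scaling between libraries, was 0.496, 0.208, 0.376 and 0.216 in Sost-/- and 0.447, 0.598, 0.436 and 0.525 in SostPB/- replicates 1 to 4. It averaged 0.324 ± 0.138 and 0.502 ± 0.0752 (SD, n = 4). Sost-/- replicate 1 lay among the SostPB/- libraries, and the other Sost-/- libraries lay below all of them. The mitochondrial share of counts was 59.2% in Sost-/- replicate 1 and 51.6%, 49.4% and 47.4% in Sost-/- replicates 2 to 4, so the Sost-/- library with the highest ratio also had the highest share. Within SostPB/- the shares were 54.7%, 59.2%, 64.3% and 58.8% in replicates 1 to 4, and the library with the highest share, replicate 3, had the lowest ratio. The part of the mitochondrial share in the ratio was not tested. The ratio was formed after the values were seen, so it has no test.

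**Figure D2:**
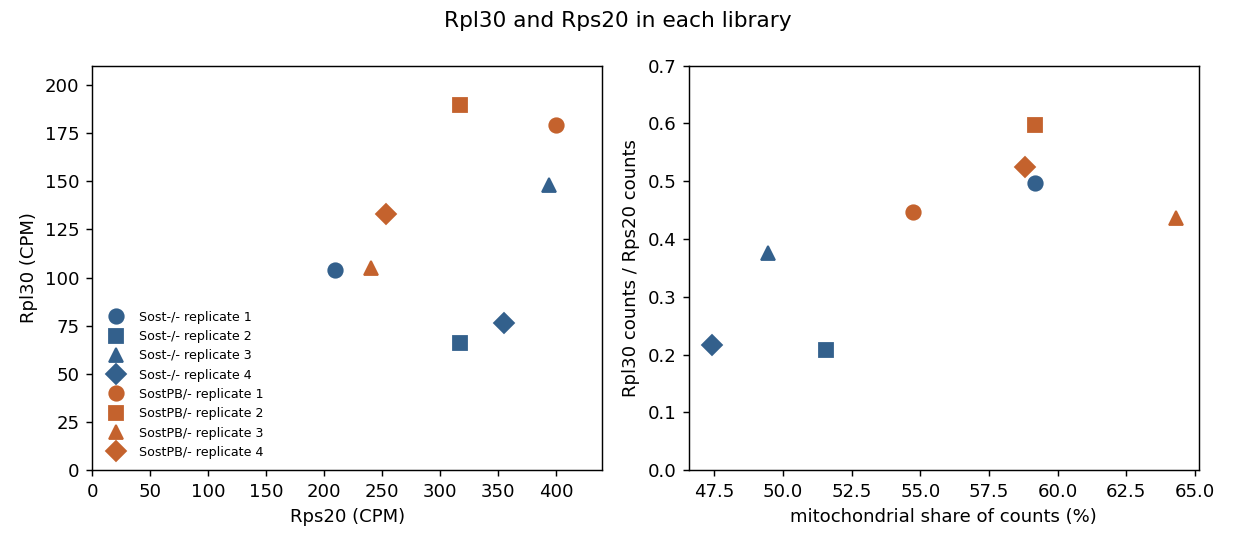
The left panel plots Rpl30 against Rps20 (both in CPM) for each library, coloured by genotype, and the right panel plots the ratio of their counts against the mitochondrial share of all counts (percent). Of the Sost-/- libraries, 3 sit at low ratio and low mitochondrial share, and Sost-/- replicate 1 sits with the SostPB/- libraries in the right panel.

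Polr1e is a subunit of RNA polymerase I, the enzyme that makes the ribosomal RNA precursor (ENSMUSG00000028318, chromosome 4, 45018583 to 45036565). It had 16.3, 9.91, 13.6 and 17.8 CPM in Sost-/- and 22.3, 15.7, 15.9 and 17.9 CPM in SostPB/- replicates 1 to 4. The groups overlapped, with Sost-/- replicate 2 the lowest and SostPB/- replicate 1 the highest of the 8. The means of 14.4 ± 3.46 and 17.9 ± 3.05 CPM (SD, n = 4) gave a log2 fold change of 0.32 (SE 0.23, edgeR adjusted p = 0.945), with a 95% interval from -0.19 to 0.83. Its last 2319 bases overlap Fbxo10 on the opposite strand, a row with 28 to 113 counts, against 114 to 219 for Polr1e. Fbxo10 had a log2 fold change of -0.50 (SE 0.39, edgeR adjusted p = 0.945), opposite in sign to that of Polr1e.

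Pop1 is a protein shared by RNase P, which trims transfer RNA, and RNase MRP, which cuts the ribosomal RNA precursor (ENSMUSG00000022325, chromosome 15, 34495304 to 34530648). It was the lowest of the 7, at 7.31, 5.21, 8.04 and 4.99 CPM in Sost-/- and 9.67, 4.74, 7.10 and 4.61 CPM in SostPB/- replicates 1 to 4, from 46 to 97 counts a library. The SostPB/- libraries spanned the whole Sost-/- range. Its log2 fold change of 0.03 (SE 0.32) had a 95% interval from -0.67 to 0.73 (edgeR adjusted p = 0.996), the widest of the 7, and spans 0.627-fold to 1.66-fold. Pop1 starts 49 bases from the start of Rida on the other strand. Rida, an abundant liver gene of imine breakdown, had 890 ± 145 and 1148 ± 140 CPM (SD, n = 4), with a log2 fold change of 0.37 (SE 0.16, unadjusted p = 0.0456 and adjusted p = 0.765 in edgeR).

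Nol6 works in the early particle from which the small subunit is cut (ENSMUSG00000028430, chromosome 4, 41114427 to 41124455). Its levels were 53.4, 76.6, 57.5 and 65.0 CPM in Sost-/- and 56.3, 59.1, 49.6 and 69.0 CPM in SostPB/- replicates 1 to 4. The groups overlapped almost fully. Their means were 63.1 ± 10.2 and 58.5 ± 8.08 CPM (SD, n = 4), and the log2 fold change of -0.11 (SE 0.17) had a 95% interval from -0.49 to 0.27 and an edgeR adjusted p of 0.981. With a highest library 1.54 times its lowest, Nol6 had the narrowest spread over all 8.

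Rbm28 is an RNA-binding protein of the nucleolus that acts in large subunit assembly (ENSMUSG00000029701, chromosome 6, 29123576 to 29165006). It had 131, 172, 202 and 205 CPM in Sost-/- and 133, 166, 195 and 197 CPM in SostPB/- replicates 1 to 4. In both groups replicate 1 was the lowest and replicates 3 and 4 were the highest, and the groups overlapped almost fully. The means of 177 ± 34.5 and 173 ± 29.997 CPM (SD, n = 4) gave a log2 fold change of -0.04 (SE 0.19, edgeR adjusted p = 0.992), with a 95% interval from -0.46 to 0.38.

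Brix1, a factor of large subunit assembly (ENSMUSG00000022247, chromosome 15, 10474779 to 10485947), was the gene whose groups did not overlap. It had 44.6, 36.4, 45.9 and 46.8 CPM in Sost-/- and 60.3, 46.9, 49.6 and 51.5 CPM in SostPB/- replicates 1 to 4. The separation was thin: the highest Sost-/- library stood at 46.81 CPM and the lowest SostPB/- library at 46.86 CPM. The groups remained apart when counts were divided by nuclear totals, and overlapped when they were divided by all counts or by the counts of the 3 stretches. The means were 43.4 ± 4.76 and 52.1 ± 5.84 CPM (SD, n = 4). The log2 fold change was 0.26 (SE 0.16, 95% interval -0.09 to 0.61), with an unadjusted p of 0.125 and an adjusted p of 0.907 in edgeR. Rad1, a DNA damage checkpoint gene that starts 71 bases from Brix1 on the other strand, had 8.89 ± 1.27 and 8.08 ± 2.64 CPM (SD, n = 4) and differed by -0.14 on the log2 scale (SE 0.28, adjusted p in edgeR 0.981).

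Levels of different genes can be set beside each other only per length. Per kilobase of annotated exon, Sost-/- livers had 78.2 ± 19.4 CPM for Rps20, 32.7 ± 12.1 for Rpl30, 31.3 ± 6.10 for Rbm28, 15.9 ± 1.74 for Brix1, 12.04 ± 1.94 for Nol6, 3.70 ± 0.889 for Polr1e and 1.68 ± 0.400 for Pop1 (SD, n = 4). On this length Rpl30 and Rbm28 lay within 1 SD of each other, and the other neighbours in this order were further apart than the SD of either. SostPB/- livers gave the same order, with 74.2 ± 17.9 for Rps20, 50.2 ± 13.1 for Rpl30 and 30.5 ± 5.30 for Rbm28. The order of the ribosomal protein genes, and how near Rpl30 lies to Rbm28, depend on the length used. Annotated exons cover 4080 bases for Rps20, 3020 for Rpl30 and 5663 for Rbm28. The longest protein-coding transcript is 3706 bases for Rps20, 886 for Rpl30 and 4465 for Rbm28. Per kilobase of these transcripts, Sost-/- livers had 86.1 CPM for Rps20, 111 for Rpl30 and 39.7 for Rbm28.

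The estimated spread between mice differed among the 7. For each row edgeR draws this estimate toward that of rows of like abundance, so it is not the observed spread alone. The biological coefficient of variation that edgeR estimated was 33.4% for Pop1, 29.5% for Rpl30, 25.7% for both Rps20 and Polr1e, 22.5% for Rbm28, 20.6% for Nol6 and 19.4% for Brix1, beside a median of 24.9% over 461 rows tested on the stretches. Brix1 was among the steadier genes, with 12.8% of those rows at a lower value, and Pop1, the least abundant, among the more variable, with 71.1% lower. Those rows were not matched for abundance.

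Pairs of the 7 genes varied across the libraries in both directions. Of 21 pairs, 13 had a positive and 8 a negative Pearson r of log2 CPM over the 8 libraries, with a median of 0.18. In 0 pairs did r or Spearman's rho pass an exact permutation test after adjustment over the 21. The closest pair was Brix1 and Polr1e, with r = 0.93 (exact permutation test, two-sided, p = 0.00563, adjusted p = 0.118) and rho = 0.74 (p = 0.0458, adjusted p = 0.805). Without SostPB/- replicate 1 and Sost-/- replicate 2, the libraries farthest from the median of Brix1, r was 0.45, so the relation rests on those libraries. Within the groups, taking deviations from each group's mean, r was 0.92. That value keeps the same libraries, which are the highest and the lowest of the 8 for both genes, and it was not computed without them.

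The ribosomal protein genes were only loosely related, at r = 0.24 and rho = 0.26 for Rps20 and Rpl30 (exact permutation tests, two-sided, p = 0.552 and 0.536, adjusted p = 0.735 and 0.985), with r = 0.15 without Sost-/- replicate 1 and SostPB/- replicate 3. Rpl30 and Brix1 had r = 0.68 and rho = 0.62 (exact permutation tests, two-sided, p = 0.0564 and 0.115, adjusted p = 0.592 and 0.805) and r = 0.65 without the farthest 2 libraries. At the other end, Nol6 and Pop1 had r = -0.65 and rho = -0.62 (exact permutation tests, two-sided, p = 0.0846 and 0.115, adjusted p = 0.593 and 0.805), with r = -0.53 without the farthest 2.

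**Figure D3:**
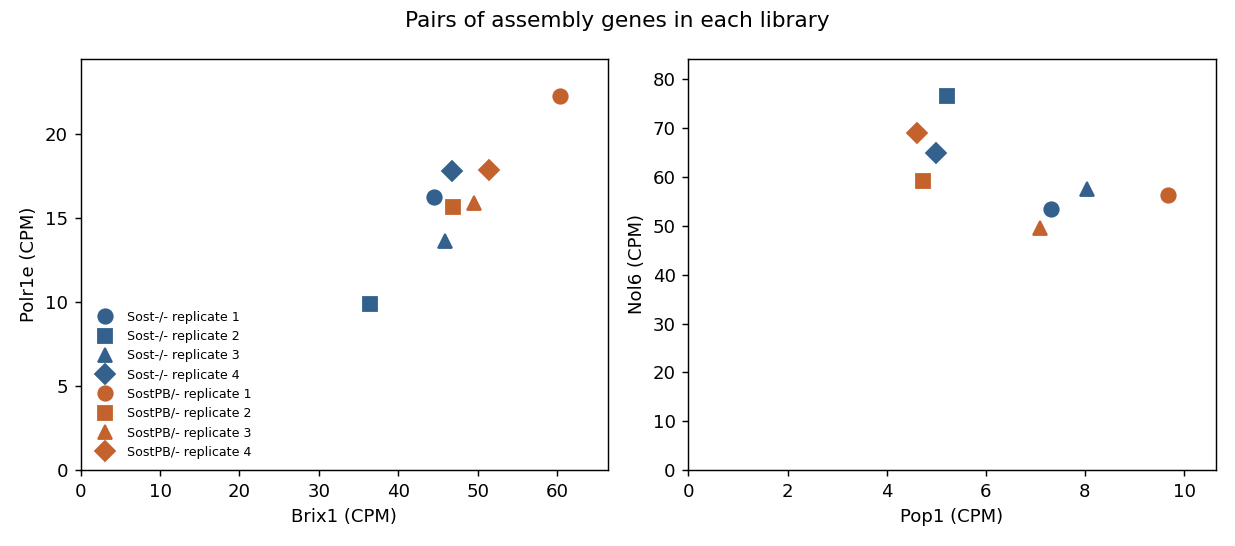
Each panel plots the CPM of 1 assembly gene against that of another in each of the 8 libraries, coloured by genotype with a symbol per replicate number. Brix1 and Polr1e rise together through the outer libraries SostPB/- replicate 1 and Sost-/- replicate 2, while Nol6 tends to be lower where Pop1 is higher.

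Among 325 other protein-coding genes of the stretches with a mean of at least 50 counts, those whose log2 CPM was most like each gene's over the 8 libraries were named by Pearson's r, as a description of a highest value among many. The coatomer gene Copg2 came first for 3 of the 7, with r = 0.93 to Brix1, 0.92 to Polr1e and 0.79 to Rpl30. Copg2 itself had a log2 fold change of 0.31 (SE 0.17, edgeR adjusted p = 0.872). Rpl30 was also near the liver gene Rida (0.77), Brix1 to Lsm8 (0.85) and Agxt2 (0.83), and Polr1e to Agxt2 (0.81) and Lyrm2 (0.78).

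The rest of the nearest genes were different ones. Rps20 stood nearest to the small GTPase gene Arf5 (r = 0.94), Fam221b (0.92) and Akirin2 (0.90). Nol6 stood nearest to Trio (0.85), Tln1, which links integrins to actin (0.82), and the cap-binding gene Ncbp1 (0.82). Rbm28 stood nearest to Cyp7a1, whose enzyme starts the classic route to bile acids (0.88), Tmem38b (0.83) and Vcp (0.79). The nearest to Pop1 were Cct5, a subunit of a chaperonin (0.87), the exosome gene Exosc3 (0.82) and Rpp25l (0.81), which is related to an RNase P and MRP subunit.

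Other genes around the pathway were taken from lists of ribosome assembly, RNase P and MRP, the RNA exosome, mitochondrial ribosomal proteins, translation factors, aminoacyl-tRNA synthetases and mTORC1 control. On the stretches 11 of them were tested besides the 7, and none of the translation factors. In edgeR 0 of 11 passed in either direction, 0 had an unadjusted p under 0.05, and in 0 were the groups apart. DESeq2 and limma-voom also called 0 of the 11 both after adjustment and at an unadjusted p of 0.05. Their log2 fold changes ran from -0.19 to 0.21 with a median of 0.04, with 7 above and 4 below 0.

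For large subunit assembly there were Mdn1, a giant ATPase that strips assembly factors off, and Tex10, a part of a complex that works with it. Mdn1 had 212 ± 39.6 and 190 ± 40.6 CPM (log2 fold change -0.16, SE 0.20) and Tex10 had 58.6 ± 2.73 and 52.4 ± 5.52 CPM (-0.16, SE 0.14; SD, n = 4 in each). The exosome trims ribosomal RNA ends: its subunit Exosc3 had 38.3 ± 3.63 and 39.3 ± 8.95 CPM (0.04, SE 0.19), and the cofactor Zcchc7 had 295 ± 60.4 and 298 ± 43.0 CPM (0.02, SE 0.18). Of the RNase MRP group, Rpp25l was at -0.06 (SE 0.31), and the RNA component Rmrp, which held a mean of 19.4 counts in these poly-A libraries, was at 0.16 (SE 0.60). The Tex10 means lay further apart than the SD of either group, and the groups overlapped. None of these genes passed the edgeR test.

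The mitochondrial ribosomal protein gene Mrpl50 had 252 ± 49.5 and 291 ± 18.9 CPM (SD, n = 4), and its difference of 0.21 on the log2 scale (SE 0.16) was the highest of the 11. Tars, which loads threonine onto its transfer RNA, was at 0.19 (SE 0.18). Among genes that relay amino acid supply to mTORC1, Rragd was at -0.19 (SE 0.30), Mios at 0.10 (SE 0.19) and Bmt2, a sensor of S-adenosylmethionine, at 0.15 (SE 0.15). Each of the 11 had an edgeR adjusted p above 0.9.

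**Figure D4:**
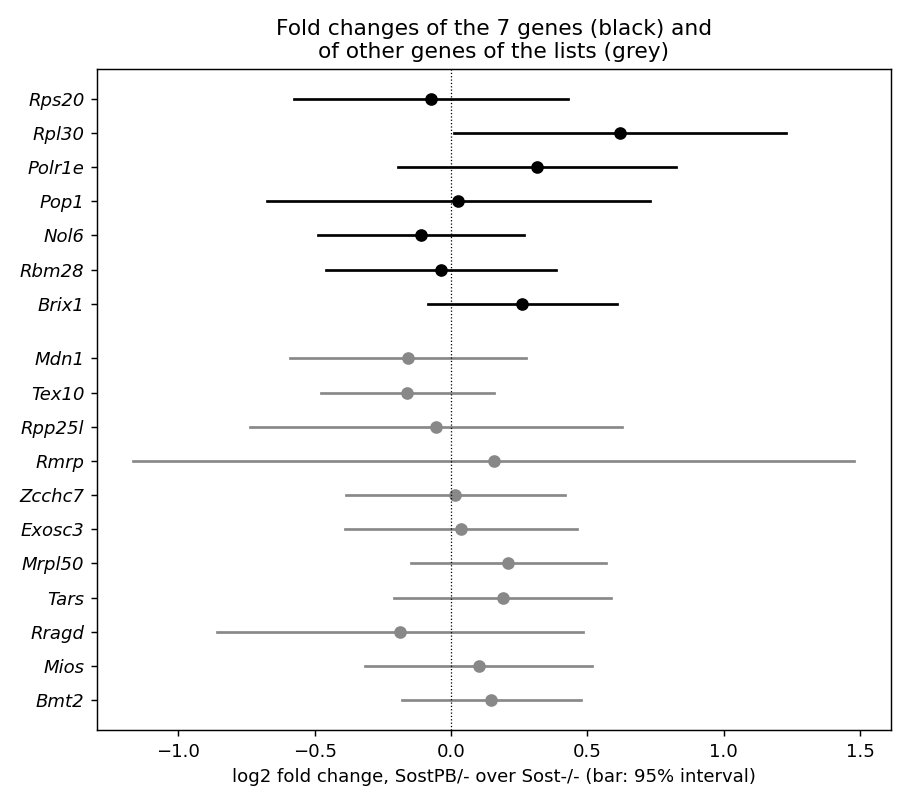
Points are log2 fold changes of SostPB/- over Sost-/- and bars their 95% intervals, for the 7 genes (black) and 11 other genes of the lists (grey). Only the bar of Rpl30 leaves out 0, at 0.01 to 1.23, and it did not pass after adjustment over all rows tested.

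Markers of liver cell types that lie on the stretches are given beside these values, and none was at 0 in every library. Of the hepatocyte genes, Baat, which joins bile acids to amino acids, had 452 ± 82.2 CPM in Sost-/- and 440 ± 54.5 in SostPB/-, and Pon3 had 350 ± 71.8 and 350 ± 40.2 CPM (SD, n = 4). As sums of CPM, the markers of stellate cells and fibroblasts (2 of 6) summed to 92.7 to 177 and 103 to 169, of endothelium (3 of 5) to 27.9 to 49.3 and 27.4 to 40.4, of B cells (2 of 5) to 6.37 to 17.8 and 6.51 to 16.7, and the single T cell marker Il7r to 53.0 to 88.1 and 39.9 to 65.7. The cycling genes Ccne2 and Smc2 (2 of 4) summed to 49.6 to 64.5 in Sost-/- and 57.0 to 102 in SostPB/-. None of the macrophage markers lies on the stretches. All these ranges overlapped between the genotypes. Of the cycling genes, Smc2, a subunit of condensin, had 28.4 ± 5.86 and 48.99 ± 16.0 CPM (SD, n = 4), with a log2 fold change of 0.79 (SE 0.26) and an unadjusted p of 0.0118 and adjusted p of 0.664 in edgeR. The cyclin gene Ccne2 differed by 0.26 (SE 0.20, unadjusted p in edgeR 0.211). Within SostPB/- Smc2 was highest in replicates 3 and 4, at 60.4 and 63.3 CPM, the libraries where Rpl30 was lowest. The part of these genes in the Rpl30 value was not tested.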

How the data were processed

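Poly-A RNA of 8 livers was sequenced, 4 per genotype. Per the submitters' processing notes, HISAT2, StringTie, DESeq2 and the build mm10 were used, with no version given; no source used here gives the annotation or strand setting. The authors deposited whole-number counts per gene (55416 rows) and a table of normalized signal (22883 rows), in which each deposited column equalled the counts over 1 size factor; 100% of values came out whole within 0.001 and were tested as an alternative. Groups came from sample titles and columns from sample descriptions. Positions were taken by gene ID from GENCODE M21 (GRCm38), and the stretch bounds from the rule at 0.1 Mb. The sequences are from GENCODE M21 and RefSeq (GRCm38.p6).

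All rows of counts entered edgeR 4.0.16 (R 4.3.3) with filterByExpr, TMM scaling, glmQLFit and glmQLFTest, with Benjamini-Hochberg adjustment at 0.05 over 10020 rows. CPM values use TMM-scaled totals, and log2 CPM a prior count of 2. The standard error is the log2 fold change over the square root of F. DESeq2 1.42.0, limma 3.58.1 with voom, other scalings, filters and row sets, a replicate block and the omission of single libraries served as alternatives. The fit was also run on counts simulated from its own estimates. That run cannot show how well the model suits these data, and its outcome is not used here. Named were the 7 genes, genes of the lists on the stretches with a mean of at least 10 counts, overlapping or start-sharing neighbours, the 3 genes most like each, and the cell type markers. The genes and lists were chosen with earlier results of these data known. A marker and the results that need it are not reported here.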

Additional observations from a re-analysis of the deposited data

How the results depend on the processing

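In all settings run, 0 of the 7 genes passed after adjustment. Over the whole table, where 0 rows passed in edgeR (646 with an unadjusted p under 0.05), 2 passed with no filter on low counts, 1 with a mean of at least 50 counts, 1 in limma-voom and 52 in DESeq2. Leaving out 1 library gave 0 to 4: 4 without Sost-/- replicate 1, 2 without Sost-/- replicate 4, and 1 each without Sost-/- replicates 2 and 3 and SostPB/- replicates 3 and 4. The log2 fold changes of 4 genes kept their sign but not their size. Rpl30 ran from 0.44 with library totals alone to 0.88 without Sost-/- replicate 3, Brix1 from 0.073 with library totals alone to 0.31 without SostPB/- replicate 2, and Polr1e from 0.14 with library totals alone (0.17 without Sost-/- replicate 2) to 0.44 without Sost-/- replicate 4. Nol6 ran from -0.31 with library totals alone to -0.0028 without Sost-/- replicate 2. Those of the other genes changed sign when 1 library was left out: Rps20 from -0.24 to 0.044, Pop1 from -0.22 to 0.16 and Rbm28 from -0.16 to 0.070. Pop1 was also at -0.15 with library totals alone, a scaling that put the median of all rows at -0.21. The replicate numbers do not pair the mice as far as the labels say. Each gene's group mean was subtracted from its log2 CPM, and these deviations were correlated between same-numbered libraries. The correlations were -0.04 to 0.04, with 1 of 4 closest to its own number. With a replicate block in edgeR 0 rows passed, 473 had an unadjusted p under 0.05, and Pop1 was at -0.0048. The cause of these changes was not tested. The fit on the rows of the stretches alone was added after seeing the data. Depth limits Pop1 most, at 46 to 97 counts a library.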
